A study of Mus musculus with 20 samples.

Results

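Chat, Slc18a3, Slc5a7, Ache and Slc10a4 were followed as the genes of acetylcholine synthesis and transport in single cells of the mouse habenula, measured by RNA sequencing. The members were the rows carrying these 5 symbols, out of 37994 genes in the developmental series and 36104 in the second set, and all 5 were found in both. The developmental series held 15 plates of the Brn3a-tauLacZ line (Brn3a is an older name of Pou4f1), with 2 plates each at E11, E13, E15, E18, P4, P7 and adult and 1 at E12. The second set held 5 plates of C57BL/6 mice at E18: 2 of left habenula, 2 of right habenula and 1 of both sides. Every plate was made with Cel-seq2, which tags each transcript with a unique molecular identifier (UMI). The labels give neither the reporter genotype nor sex, animals per plate or a sort gate, so p-values measure the spread between plates, which may be technical.

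Acetylcholine is made by choline acetyltransferase (Chat) from choline and acetyl-CoA, loaded into synaptic vesicles by the vesicular transporter Slc18a3 (VAChT) and split in the cleft by acetylcholinesterase (Ache). The freed choline returns to the terminal through the high-affinity transporter Slc5a7 (CHT1). Slc10a4 is an orphan vesicular transporter known from cholinergic and monoaminergic neurons. Ventral medial habenula neurons are a well-known cholinergic population that projects to the interpeduncular nucleus, and Slc18a3 lies inside the Chat gene, an arrangement called the cholinergic gene locus.

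In GENCODE M21 (GRCm38), Chat lies at chr14:32408203-32465989 on the minus strand and Slc18a3 at chr14:32462438-32464850, on the same strand within Chat. Slc18a3 has 1 exon. Chat also overlaps the antisense gene Gm2990, so reads of these overlapping genes may be divided uncertainly. Slc5a7 (chr17:54273590-54299034, minus strand) and Slc10a4 (chr5:73006883-73012955, plus strand) overlap no other annotated gene. Ache (chr5:137287519-137294466, plus strand) overlaps Gm42456 on the other strand and Mir8116.

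The 250 bases before the RefSeq start (GRCm38.p6) are shown for 4 members because Slc10a4 differs from the locus pair and Slc5a7 in the course of its level described below. Each reads 5′ to 3′ on the gene's own strand, and capitals mark the GC box GGGCGG on either strand, overlapping matches included. The windows are chr14:32465910-32466159 for Chat, chr14:32464851-32465100 for Slc18a3, chr17:54299035-54299284 for Slc5a7 and chr5:73006654-73006903 for Slc10a4.
Chat: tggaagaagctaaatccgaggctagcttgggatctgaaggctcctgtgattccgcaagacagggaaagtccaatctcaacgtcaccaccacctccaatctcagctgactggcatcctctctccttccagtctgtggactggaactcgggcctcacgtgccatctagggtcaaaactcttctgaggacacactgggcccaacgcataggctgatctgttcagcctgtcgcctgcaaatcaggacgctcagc
Slc18a3: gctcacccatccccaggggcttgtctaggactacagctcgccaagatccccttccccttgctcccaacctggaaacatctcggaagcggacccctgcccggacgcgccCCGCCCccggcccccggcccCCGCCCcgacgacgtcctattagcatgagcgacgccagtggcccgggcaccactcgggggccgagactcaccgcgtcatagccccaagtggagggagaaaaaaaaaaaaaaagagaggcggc
Slc5a7: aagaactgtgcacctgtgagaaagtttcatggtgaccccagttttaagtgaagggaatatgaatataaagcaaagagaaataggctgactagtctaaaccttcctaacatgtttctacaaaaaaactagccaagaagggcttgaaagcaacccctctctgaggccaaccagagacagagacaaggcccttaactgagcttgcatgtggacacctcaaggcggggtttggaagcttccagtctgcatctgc
Slc10a4: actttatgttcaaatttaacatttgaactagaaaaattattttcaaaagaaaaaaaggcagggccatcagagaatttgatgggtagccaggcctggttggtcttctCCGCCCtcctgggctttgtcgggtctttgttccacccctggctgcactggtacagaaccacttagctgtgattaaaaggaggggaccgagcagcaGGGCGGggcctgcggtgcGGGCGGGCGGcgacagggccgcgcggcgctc
All 5 members were matched in the promoter table. The GC box occurred at 2 positions before Slc18a3, 4 before Slc10a4 and 4 before Ache, and was not found in these windows of Chat and Slc5a7; 32.7% of the 32851 promoters hold it. The core ATTAAT, known from sites of POU4F factors such as Brn3a, was in none of the 5 windows and in 4.39% of all promoters. GC content was 73.6% before Ache, 66.0% before Slc18a3, 54.8% before Chat, 54.4% before Slc10a4 and 45.6% before Slc5a7, against a median of 52.4% over all promoters. These matches describe letters only.

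Wells were kept if they held 500 or more genes and 1000 or more counts (spike-ins and mitochondrial transcripts apart), with a mitochondrial share of 20% or less, leaving 3729 wells in the series and 1082 in the second set. Summed counts of kept wells ran from 758697 to 7760372 per plate. Several plates stood apart. Adult plate 1 kept 56 wells and carried 9895 counts per 1e+06 counts (CPM) of oligodendrocyte-lineage markers, E18 plate 1 had 117 of 267 wells led by glial or vascular markers and 321 CPM of the 12 medial habenula markers against 4322 CPM on E18 plate 2, and E13 plate 2 held 3845 CPM of ependymal or choroid plexus markers. The left plates carried 17220 and 19048 CPM of erythroid genes. On the P4, P7 and adult plates the medial habenula list summed to 6320 to 8875 CPM, while 5 measured genes that mark motor or other cholinergic neurons summed to 0.199 to 6.59 CPM, with Isl1 and Mnx1 at 0.

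Chat, the enzyme, was at most 3.01 CPM on the prenatal plates of the series. Its level was 0.386 and 0 CPM on the E11 plates, 0.421 CPM at E12, 0 and 0.531 CPM at E13, 1.63 and 2.38 CPM at E15, and 0.798 and 3.01 CPM at E18. It then stood at 66.0 and 83.8 CPM at P4, 61.0 and 54.7 CPM at P7, and 44.8 and 82.6 CPM in the adult. Every postnatal plate was above every prenatal plate of the series. From E18 to P4 Chat rose by 5.74 ± 0.59 (log2, SE; adjusted p = 0.000642, edgeR's quasi-likelihood test with Benjamini-Hochberg adjustment), from 1.91 ± 1.57 to 74.9 ± 12.6 CPM (SD, n = 2). Over the processing alternatives given below, the log2 rise of Chat ran from 4.75 to 6.86.

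Slc18a3, the vesicular loader, had the same 2 phases. It was 0.773 and 0.409 CPM at E11, 2.95 CPM at E12, 0 on both E13 plates, 1.09 and 2.97 CPM at E15, and 0 and 0.753 CPM at E18. It reached 122 and 117 CPM at P4 and 120 and 101 CPM at P7, with 40.9 and 98.5 CPM in the adult. The groups did not overlap, and Slc18a3 rose from E18 to P4 (edgeR adjusted p = 0.000382). With 1 UMI on the E18 plates and 1481 on the P4 plates, the pooled ratio was 457 with an exact 95% interval of 81.9 to 18069 (counting error only).

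Slc5a7, which takes choline back up, was low but not 0 on every prenatal plate of the series. It was 4.64 and 2.66 CPM at E11, 1.90 CPM at E12, 1.70 and 13.3 CPM at E13, 2.17 and 3.86 CPM at E15, and 2.79 and 12.1 CPM at E18. Postnatal levels were 228 and 304 CPM at P4, 206 and 210 CPM at P7, and 66.0 and 226 CPM in the adult. The E13 value of 13.3 CPM came from the plate with ependymal and vascular markers, where 8 of its 11 Slc5a7-detected wells were among the 38 wells led by glial or vascular markers; 10 of its 25 UMIs were in 1 well. The part of these wells in the level was not tested further. Slc5a7 rose from E18 to P4 by 5.56 ± 0.81 (log2, SE; edgeR adjusted p = 0.00204), and by 4.59 to 6.93 over the processing alternatives.

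Ache, the degrading enzyme, was present at the earliest stages. It measured 18.7 and 19.8 CPM at E11 and 17.5 CPM at E12, was 5.68 and 3.72 CPM at E13 and 1.63 and 6.24 CPM at E15, and 4.39 and 18.1 CPM at E18. It then read 90.8 and 71.8 CPM at P4, 108 and 118 CPM at P7, and 164 and 96.7 CPM in the adult. On adult plate 1, of 56 kept wells, 1 well held 40 of the 124 Ache UMIs, and single wells also held 12 of 34 Chat and 21 of 50 Slc5a7 UMIs. The 2 E11 plates were above both E13 and both E15 plates, but the E11 to E15 difference of -2.14 ± 0.60 (log2, SE) missed the threshold (edgeR adjusted p = 0.108). The rise from E18 to P4 was 3.20 ± 0.57 (log2, SE; edgeR adjusted p = 0.00474), and 2.29 to 4.57 over the processing alternatives.

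Slc10a4 ran the other way. It was 6.76 and 6.74 CPM at E11, 7.79 CPM at E12, 9.09 and 5.84 CPM at E13, 8.14 and 14.3 CPM at E15, and 1.20 and 5.28 CPM at E18. At P4, P7 and in the adult it was 0 on 5 of 6 plates and 0.258 CPM on P7 plate 1. In all, 205 UMIs were counted on the 9 prenatal plates and 2 on the 6 postnatal plates, a pooled ratio of 118 (exact 95% interval 32.2 to 981, counting error only). Both postnatal UMIs were in 1 well. Slc10a4 fell from E18 to P4 (edgeR adjusted p = 0.0190). The mean of the E18 plates was 13.4 times a floor of 3 counts over the P4 group (0.242 CPM). E18 plate 2 stood at 21.8 times that floor. E18 plate 1, where 117 of 267 wells were led by glial or vascular markers, stood at 4.96 times it. These ratios take the E18 levels as exact, although they rest on 3 and 7 UMIs. On E18 plate 1 the exact lower limit was 0.247 CPM, about the P4 floor, so that plate alone sets no minimum fold. Plate sums cannot separate fewer expressing cells from less RNA per cell; detection per well is given below.

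**Figure D1:**
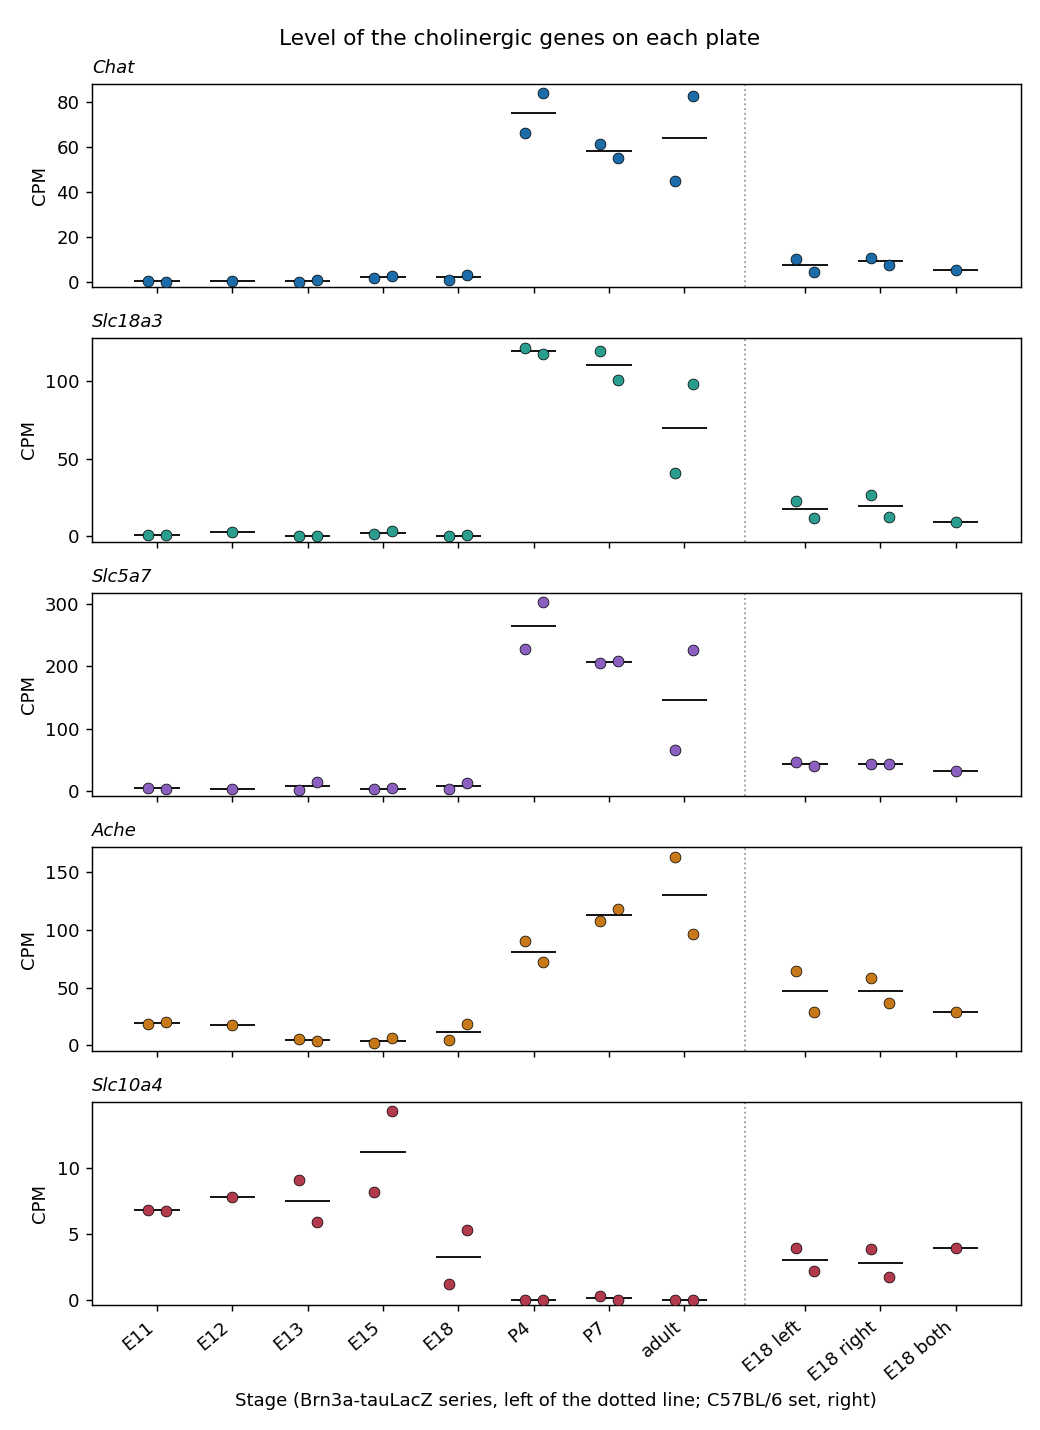
Level of each member (CPM, linear axis, 1 panel per gene) on each plate, by stage; dots are plates and lines are group means. The first 4 panels are low up to E18 and high from P4 on the series plates, while Slc10a4 is present up to E18 and at 0 on 5 of 6 postnatal plates.

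All 5 members were called from E18 to P4, 4 higher and Slc10a4 lower, where 19.6% of 17453 genes were called (9.2% higher, 10.4% lower). All 5 were called with the same signs over prenatal against postnatal plates, where 50.5% of genes were called (25.7% higher, 24.8% lower). In that comparison the log2 changes were 6.65 ± 0.33 for Chat, 8.24 ± 0.37 for Slc18a3, 5.46 ± 0.41 for Slc5a7, 3.81 ± 0.30 for Ache and -6.74 ± 0.77 for Slc10a4 (SE). Both comparisons use the E18 and P4 plates. The prenatal side of the second was the mean of the E11, E13, E15 and E18 stages, and the E12 plate entered no test. No member was called from E11 to E15 (2.21% of genes called), E15 to E18 (0.195%), P4 to P7 (0.00573%) or P7 to adult (3.58%). From E11 to E15, Ache passed under 4 of 25 alternatives (no filter on low counts, DESeq2, or without E18 plate 1 or 2) and Chat under 1 of 24 (no filter). The number of genes called from E18 to P4, 3421, moved to 1670 or 5695 when E18 plate 1 or 2 was left out, and to 880 or 574 when P4 plate 1 or 2 was left out. Chat, Slc18a3 and Slc5a7 stayed called under all 25 alternatives each, Ache missed the threshold when only the 4 E18 and P4 plates were fitted (adjusted p = 0.0823), and Slc10a4 missed it without P4 plate 1 (0.0891) or 2 (0.107).

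Among the plates of C57BL/6 mice at E18, levels were above those of the E18 series plates for 4 members. The 2 sets are different lines in separate tables, and the difference was not tested. The share of all genes with such a gap was not counted. On the E18 series plates, 117 of 267 and 10 of 110 kept wells were led by glial or vascular markers. Chat was 10.1 and 4.32 CPM on the left, 10.5 and 7.50 CPM on the right and 5.32 CPM on the plate of both sides. Slc5a7 was 46.4 and 40.1 CPM on the left, 42.4 and 42.1 CPM on the right and 32.4 CPM on both sides; on left plate 2, 34 of its 74 UMIs were in 1 well. Slc10a4 was between 1.73 and 3.95 CPM on the 5 plates. The left and right plates overlapped for all 5 members, and the share of all genes that did so was not counted. No member was called between left and right, where the plate of both sides entered no test. By edgeR 0% of 15489 genes were called, with 182 at an unadjusted p under 0.05, and DESeq2 called 1 gene. With the replicate number as a block edgeR called 6 genes, no member among them. The members' log2 differences, left minus right, were -0.21 ± 0.48 for Chat, -0.13 ± 0.41 for Slc18a3 and 0.07 ± 0.21 for Slc5a7 (SE). Ache differed by 0.05 ± 0.34 and Slc10a4 by 0.18 ± 0.73 (SE).

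Detection in single wells followed the same onset. With each well thinned to 5000 UMIs, so that depth is equal, Chat was detected in 23.7% and 27.5% of wells at P4, 17.7% on both P7 plates, and 24.1% and 22.1% in the adult, against 0 of 1070 wells from E11 to E13 and at most 3.45% on an E15 or E18 series plate. Slc18a3 was detected in 35.7% and 35.2% of wells at P4 and 32.5% and 30.6% at P7. Slc5a7 was detected in 56.0% and 69.3% of wells at P4 and 45.7% and 48.0% at P7. Over the adult plates pooled, Slc18a3 and Slc5a7 were each detected in a smaller share of wells than on any P4 or P7 plate. Of the kept wells, 36 of 56 and 162 of 342 on the adult plates were led by glial or vascular markers. On the P4 and P7 plates 15 to 29 wells per plate were. The part of this cell mix in the adult shares was not tested. Ache was found in 6.69% and 8.31% of E11 wells and 9.73% of E12 wells, then in 1.59% to 2.46% of wells at E13 and E15, and in 3 of 224 (1.34%) and 7 of 87 (8.05%) wells on the E18 plates. Slc10a4 was found in 0.893% to 7.14% of prenatal wells per plate and in none of 1409 postnatal wells.

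**Figure D2:**
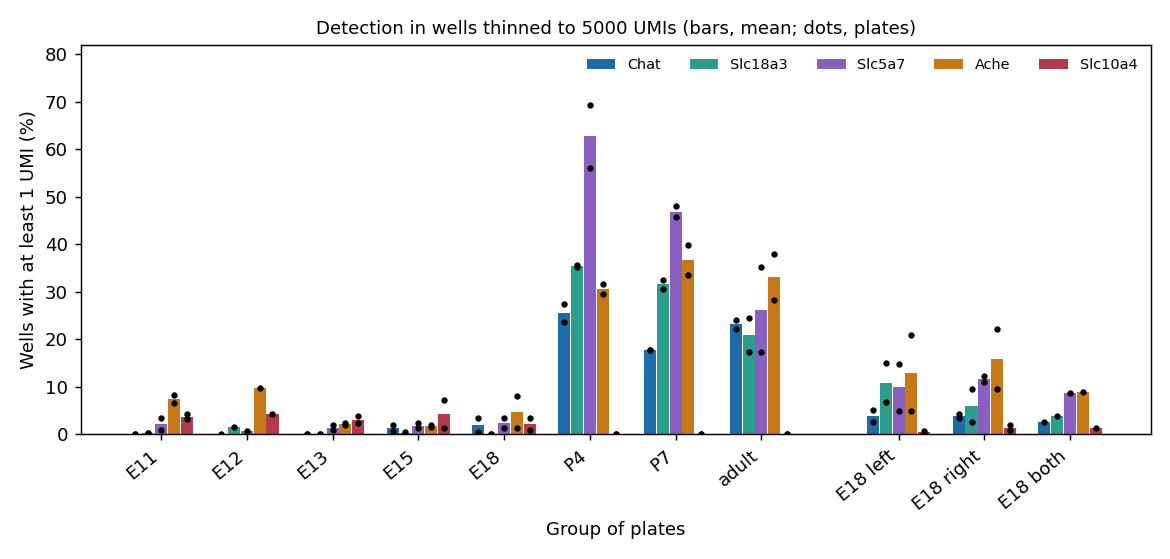
Share of wells with at least 1 UMI of each member after thinning to 5000 UMIs per well; bars are group means and dots are plates. At P4 Slc5a7 reaches 56.0% and 69.3% of wells and Chat 23.7% and 27.5%, while Slc10a4 is detected up to E18 only in the series.

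Free RNA can give UMIs in cells that do not express a gene, so wells led by glial, vascular, microglial or erythroid markers are given beside the other wells, at full depth. On adult plate 2 Chat was detected in 7 of 162 such wells (4.32%) and in 105 of 180 other wells (58.3%). Slc18a3 was in 16 of 162 and 121 of 180, and Ache in 31 of 162 and 136 of 180. On the 9 prenatal plates, Chat was in 1 of 201 such wells (0.498%) and in 19 of 1901 others (0.999%), with overlapping exact intervals, and Slc5a7 in 15 of 201 (7.46%) and 65 of 1901 (3.42%). The Chat shares are not distinguished from each other. The Slc5a7 share of the other wells was not above that of the glial or vascular wells (8 of the 15 detected ones were on E13 plate 2), and the source of these UMIs was not tested. Slc18a3 was in 0 of 201, which allows up to 1.49%, and in 28 of 1901 (1.47%), and these shares are likewise not distinguished (floor of 3 counts; the exact upper limit is 1.82%). Ache was in 6 of 201 (2.99%) and 238 of 1901 (12.5%), and Slc10a4 in 0 of 201 and 154 of 1901 (8.10%). The 201 wells had plate medians of 4061 to 15251 counts and the others 8583 to 15711, and 155 of the 201 came from E18 plate 1 and E13 plate 2. Depth, stage and cell class cannot be told apart in these gaps.

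The core genes were also counted together in wells. Without thinning, Chat, Slc18a3 and Slc5a7 were all detected in 123 of 287 wells (42.9%) and 157 of 322 wells (48.8%) at P4, in 126 of 326 (38.7%) and 94 of 294 (32.0%) at P7, and in 7 of 56 (12.5%) and 83 of 342 (24.3%) in the adult. Thinned to 5000 UMIs, the shares were 7.89% and 8.71% at P4, 6.62% and 7.26% at P7, and 3 of 29 wells and 9.54% in the adult. No prenatal well of the series held all 3. On the C57BL/6 plates at E18, thinned in the same way, all 3 were found in 2 of 250 and 0 of 40 left wells, 2 of 265 and 0 of 115 right wells and 2 of 311 wells of both sides. Without thinning, these counts were 19 of 283, 1 of 54, 19 of 279, 4 of 133 and 12 of 333. At P4, Ache was found in 8 of 21 and 8 of 25 triple-detected wells when thinned (38.1% and 32.0%), and in 22 of 72 and 18 of 55 wells with none of the 3 (30.6% and 32.7%). The same shares were 42.9% against 40.3% and 27.8% against 37.6% at P7, 1 of 3 against 5 of 19 wells on adult plate 1, and 11 of 25 (44.0%) against 30 of 136 (22.1%) on adult plate 2. On the adult plates 36 of 56 and 162 of 342 kept wells were led by glial or vascular markers. Their part in the adult shares of this paragraph was not tested.

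At equal depth, Slc18a3 was detected in 50.8% of Chat-detected and 31.0% of Chat-undetected wells on P4 plate 1, and in 38.0% and 34.1% on P4 plate 2. On the P7 plates the shares were 53.6% against 28.0% and 54.5% against 25.5%. For Slc5a7 they were 68.3% against 52.2% and 77.2% against 66.3% at P4, and 67.9% against 41.0% and 70.5% against 43.1% at P7. Adult plate 2 gave 53.4% against 16.2% for Slc18a3 and 72.4% against 24.5% for Slc5a7. For Ache they were 41.3% against 28.6% and 29.1% against 29.8% at P4, 39.3% against 39.8% and 31.8% against 33.8% at P7. The exact intervals of Ache overlapped on all 6 plates, and those of Slc18a3 and Slc5a7 overlapped on both P4 plates and adult plate 1 and did not on both P7 plates and adult plate 2. An undetected gene in a well of this depth may still be expressed, and some Chat-undetected wells of P4 and P7 held Chat UMIs before thinning. On adult plate 2, 162 of 342 kept wells were led by glial or vascular markers. Before thinning, Chat-detected wells were deeper on the plates whose intervals did not overlap. Their median counts were 30156 against 21963 and 26900 against 19132 at P7, and 28088 against 12692 on adult plate 2. At P4 they were 21964 against 20521 and 22047 against 21941. The part of cell class and of this depth in the shares was not tested.

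**Figure D3:**
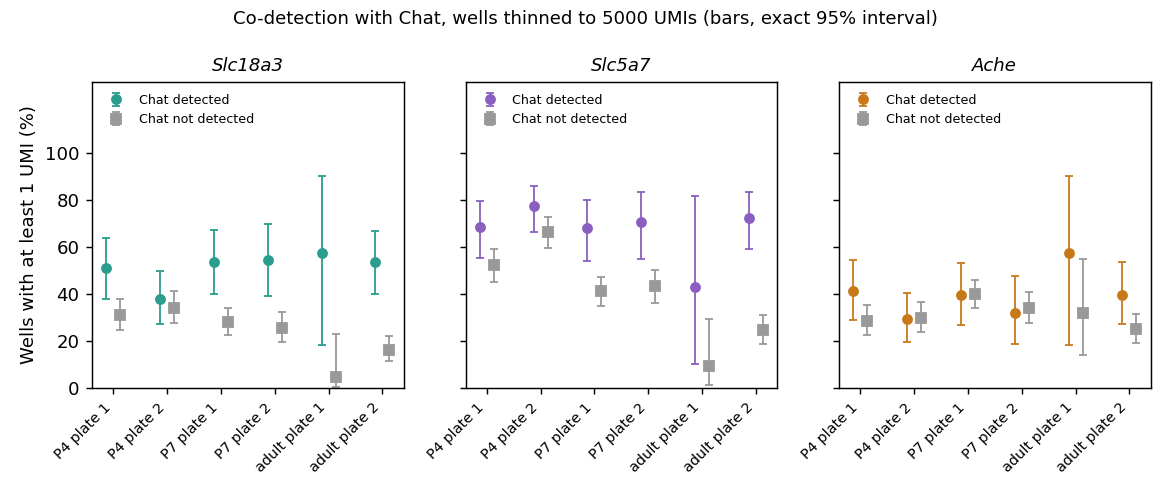
Share of wells with at least 1 UMI of Slc18a3, Slc5a7 or Ache among Chat-detected (circles) and Chat-undetected (squares) wells, thinned to 5000 UMIs; bars are exact 95% intervals. Slc18a3 and Slc5a7 lie higher in Chat-detected wells on all 6 plates, and Ache does on 3 of 6.

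Across the genes, Chat-detected and Chat-undetected wells, divided after the same thinning, were compared over the 4 plates of P4 and P7, with plate as a block. The split held 242 detected and 876 undetected wells. Without thinning, Chat was detected in 588 wells of these plates (39.8% to 57.5% per plate) and undetected in 641. The Chat-undetected class of the split therefore includes wells that held Chat UMIs at full depth. Slc18a3 was 157 ± 24.6 CPM in Chat-detected and 86.5 ± 11.1 CPM in Chat-undetected wells (SD, n = 4 plates), a log2 change of 0.84 ± 0.15 (SE; edgeR adjusted p = 8.82e-05). Slc5a7 was 302 ± 35.6 and 198 ± 49.4 CPM, 0.62 ± 0.11 (SE; edgeR adjusted p = 7.57e-05). Both were higher on 4 of 4 plates, in a comparison where 5.03% of 9199 genes were called (2.09% higher, 2.95% lower). Ache did not pass (97.5 ± 19.1 and 94.4 ± 17.0 CPM; 0.08 ± 0.16, adjusted p = 0.923). Chat itself defines the split, and Slc10a4 was too low to test. Slc18a3 lies on the same strand within Chat, so reads of the locus may enter both the split and the Slc18a3 level. The part of such reads was not tested. Without the plate block, the Slc5a7 call was lost (adjusted p = 0.0698).

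The genes with the largest rises in Chat-detected wells were Neurod2 (1.12 ± 0.19), Tti2 (1.08 ± 0.33), Plxna4 (0.93 ± 0.18), Trhde (0.92 ± 0.12) and Srrm4 (0.91 ± 0.17), followed by Smoc1, Pkib, Ano3, Gm12130 and Kcna2 between 0.85 and 0.89 (log2, SE). Neurod2 is a neuronal bHLH factor, Plxna4 a semaphorin receptor, Trhde degrades thyrotropin-releasing hormone and Kcna2 is a potassium channel. Col1a2 (-4.58 ± 0.31), Col1a1, Gm49394, Igf2 and Vtn fell most; these are collagen, growth factor and matrix genes, and Gm49394 overlaps Igf2. The 9 vascular markers summed to 69.8 to 164 CPM in Chat-detected and 162 to 1451 CPM in Chat-undetected wells. On all 4 plates the lists of lateral habenula (340 to 611 against 435 to 934 CPM), progenitors (81.8 to 210 against 190 to 390 CPM), oligodendrocyte lineage (10.7 to 106 against 157 to 283 CPM) and astrocytes (3.57 to 63.3 against 135 to 260 CPM) were also lower in Chat-detected wells. The ependymal or choroid plexus and microglial lists were lower there too, at 25.4 CPM or less. The intermediate progenitor list was higher in Chat-detected wells on all 4 plates, at 436 to 797 against 303 to 643 CPM. Of that list only Neurod1 was high enough to test, and it rose (0.50 ± 0.09). In Pou4f1-detected wells Neurod1 was 584 ± 159 against 450 ± 168 CPM (SD), so the list sum mainly follows this gene. The part of the listed cell types in the differences was not tested beyond the Pou4f1-detected wells. When only Pou4f1-detected wells were compared, Slc18a3 (0.76 ± 0.15) and Slc5a7 (0.54 ± 0.11) stayed called.

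Among habenula genes, Tac1, the substance P precursor of dorsal medial habenula neurons, was 6.35, 10.1, 21.4 and 40.9 CPM in Chat-detected wells and 61.1, 31.7, 174 and 221 CPM in Chat-undetected wells of the same 4 plates, a change of -2.59 ± 0.25. Calb2 (-1.62 ± 0.12), Wif1 (-2.40 ± 0.24) and Gng8 (-0.42 ± 0.10) of the medial list were also lower in Chat-detected wells. So were Gap43 (-2.90 ± 0.42), Cck (-1.65 ± 0.34) and Gpr151 (-0.74 ± 0.13) of the lateral list. Of the thalamus list, Calb1 (-1.99 ± 0.22) and Lhx9 (-0.26 ± 0.08) fell and Lef1 (0.45 ± 0.13) rose. Tac2, the neurokinin B precursor, did not pass (0.01 ± 0.10). Of the 11 tested genes of the medial habenula list, 4 rose and 4 fell, where 2.09% of all genes were called higher and 2.95% lower; the risers were the receptor subunits Chrna3 and Chrnb3 with Kcnip1 (0.45 ± 0.07) and Lrrc55 (0.43 ± 0.10). The list summed to 6854, 7942, 7739 and 7682 CPM in Chat-detected and 6849, 7710, 7710 and 8139 CPM in Chat-undetected wells. In Pou4f1-detected wells Tac1 was 20.0 ± 15.9 against 131 ± 97.7 CPM (-2.69 ± 0.25), and Calb2 fell by 1.72 on the log2 scale.

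**Figure D4:**
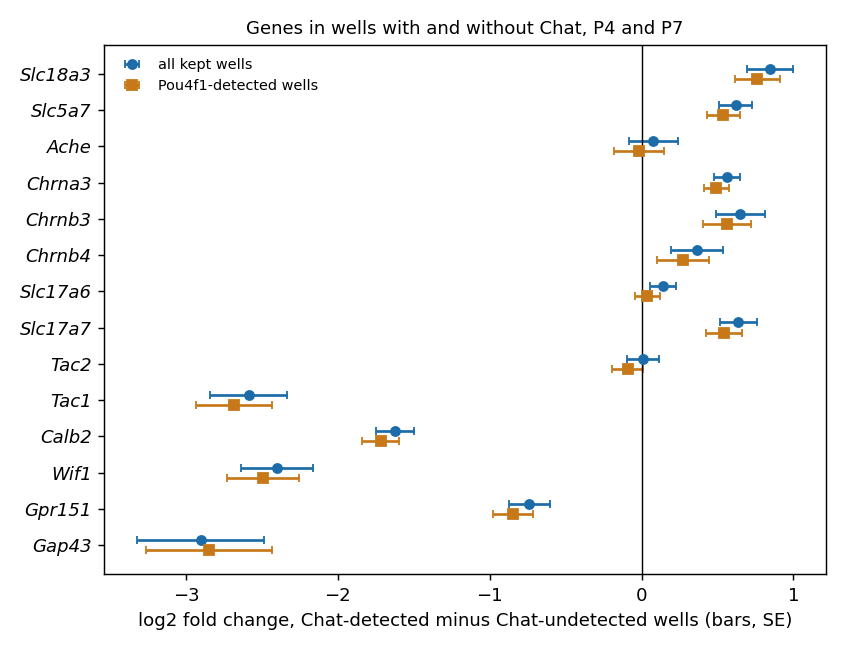
Log2 fold change (x axis; bars, SE) of members and habenula genes between Chat-detected and Chat-undetected wells of P4 and P7, in all kept wells (circles) and in Pou4f1-detected wells (squares). Slc18a3, Slc5a7, Chrna3, Chrnb3 and Slc17a7 lie above 0, Ache and Tac2 near 0, and Tac1, Calb2, Wif1, Gpr151 and Gap43 below 0 in both sets.

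The remaining genes of the pathway were counted by list, beside the 19.6% of all genes called from E18 to P4 (9.2% higher, 10.4% lower). Of 16 choline-supply and acetyl-CoA genes, 14 were tested from E18 to P4 and 3 rose, the pyruvate dehydrogenase subunits Pdha1 (1.88 ± 0.19), Pdhb (1.45 ± 0.19) and Dlat (1.35 ± 0.19); the list median was 0.007 against -0.070 over all genes. Of 3 breakdown and anchoring genes, 2 were tested: Prima1, the membrane anchor of Ache, rose (1.83 ± 0.57) and butyrylcholinesterase Bche fell, from 3.01 and 5.19 CPM on the E18 plates to at most 0.170 CPM on a P4 plate. In the same comparison 4 of 7 astrocyte markers fell and none of 9 vascular markers was called; the astrocyte list summed to 1058 and 284 CPM at E18 and 98.7 and 73.9 CPM at P4, and the vascular list to 465 and 1027 CPM and then 172 and 122 CPM. The part of such cells in the Bche level was not tested. Of 15 cholinergic-fate transcription factors, 7 were tested and none was called. Of 16 acetylcholine receptors, 11 were tested and 6 rose, and the list median was 3.51. Chrnb3 was at most 1.51 CPM on an E18 plate and at least 92.8 CPM on a P4 plate. Chrna6 was at most 2.26 CPM, then 21.2 and 25.9 CPM. The other risers were Chrnb4 (4.26 ± 0.50), Chrna5 (3.53 ± 0.81), Chrna3 (3.51 ± 0.48) and Chrna4 (2.09 ± 0.56). Of 9 genes of other vesicular transporters and Sv2 vesicle proteins, 8 were tested and 4 rose. The glutamate loader Slc17a7 led (at most 0.798 CPM on an E18 plate, 177 and 182 CPM at P4). Sv2b (1.63 ± 0.31), Sv2c (1.12 ± 0.33) and Slc17a6 (0.91 ± 0.29) followed.

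Between Chat-detected and Chat-undetected wells, where 2.09% of genes were called higher, 2 of 8 tested receptors rose, Chrna3 (0.56 ± 0.09) and Chrnb3 (0.65 ± 0.16). Slc17a7 rose (0.64 ± 0.12), while Slc17a6, the other glutamate loader, was 580 ± 99.5 and 531 ± 29.6 CPM and did not pass. None of the 13 tested choline-supply genes was called.

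Over the 15 series plates, the genes whose level tracked Chat most closely (Pearson r of log2(CPM + 1), 10817 genes of at least 10 CPM) were Pitpnm3 (0.983), Cpox (0.980), Enox2 (0.979), AF529169 (0.979) and the nicotinic subunit Chrnb4 (0.979). Slc18a3 reached 0.973, Slc5a7 0.964, Ache 0.853 and Slc10a4 -0.901. These values describe plates that share stage and depth.

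The share of unspliced UMIs differed between members. Slc18a3, with its single exon, had none in any plate. Chat had 28.2% to 44.1% on the 6 postnatal plates, and 16 of its 22 prenatal UMIs in the series were unspliced. Slc5a7 had 4.69% and 6.37% at P4, 6.01% and 5.21% at P7, and 26.0% (13 of 50 UMIs, exact interval 14.6% to 40.3%) and 3.70% on the adult plates. It had 14.4% to 33.8% on the C57BL/6 plates at E18 (exact intervals for P7 plate 1, 4.90% to 7.29%, and for left plate 1, 16.4% to 26.4%). Ache had 1.43% to 4.27% at P4 and P7. Slc10a4 had 5 unspliced UMIs among the 205 prenatal ones. Reads of Chat introns and of Slc18a3 come from the same strand of overlapping genes, and their part in the Chat share was not tested.

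A split of prenatal wells by Slc10a4 was added after the data had been seen. On the 6 plates of E11, E12, E13 and E15 with at least 10 detected wells, 0.886% of 10044 genes were called. Necab1 (0.86 ± 0.21), Car10 (0.84 ± 0.15), Reln (0.71 ± 0.15), Nrg3 (0.68 ± 0.13) and Snhg11 (0.64 ± 0.13) were higher with Slc10a4; Id3 (-3.09 ± 0.39), Top2a (-2.92 ± 0.32), Sparc, Hist1h2ap and Apoe were lower (log2, SE, edgeR adjusted p under 0.05 for each). Top2a and Hist1h2ap mark dividing cells. The progenitor list was lower in Slc10a4-detected wells on all 6 plates, at 170 to 623 against 368 to 1080 CPM. The vascular list was lower there on all plates but E11 plate 2 (6.07 against 5.00 CPM), for example 46.2 against 451 CPM on E13 plate 1. The part of such cells in the differences was not tested. Slc10a4-detected wells were deeper, with medians of 11761 to 22027 counts against 8451 to 14744, and 89 genes were called. Thinned to 5000 UMIs, 6 were called, with 4 plates and 51 Slc10a4-detected wells left of 6 plates and 142 wells, so equal depth and the smaller number of wells cannot be told apart. Ache was 17.5 ± 10.2 CPM with and 10.9 ± 8.19 CPM without Slc10a4 (SD, n = 6 plates) and did not pass (adjusted p = 0.646). Thinned to 5000 UMIs and pooled over the 9 prenatal series plates, Ache was found in 7 of 65 Slc10a4-detected and 84 of 1721 other wells, Slc5a7 in 3 and 29, Slc18a3 in 2 and 5, and Chat in 0 and 9. These pooled counts mix stages and were not tested.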

How the data were processed

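Kept wells were summed per plate, and the plate was the replicate throughout. Per the labels' protocols, libraries were made with Cel-seq2 in plates of 384 wells with a 6-base UMI, and 5 plates shared a sequencing run. The labels do not say which plates these were, and run and stage cannot be told apart. The submitters' processing notes name the build mm10, STAR 2.5.3a and Trim Galore. The authors deposited total, spliced and unspliced expected counts per gene and well: the values are UMI counts corrected for collisions among 4096 UMIs, as found from the values. A plate, of both sides, is titled E1 and otherwise labelled E18, which was used. No source used here says whether counting was stranded.

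Spike-ins were left out. CPM are counts per 1e+06 counts of a plate's kept wells. The planned test assumed whole counts; the deposited values, being expected counts, were summed and rounded, then fitted with edgeR 4.0.16 (filterByExpr, TMM, quasi-likelihood test; threshold 0.05 after Benjamini-Hochberg adjustment over all genes tested). DESeq2 1.42.0 was an alternative. No doublet caller was run; leaving out wells above 3 times their plate median was an alternative. Members and lists were chosen with earlier results of these data known. The text names the members, the 5 genes most like Chat, and the 10 highest and 5 lowest called genes of the Chat split. Those called genes had at least 20 CPM and 1 sign on all 4 plates. For the lists, 2 to 4 genes by size of change were planned, and for some lists more or fewer are named. Habenula genes of the split come from the marker lists. On simulated data with known changes, 78.5% of 16-fold and 37.0% of 4-fold changes were recovered from E18 to P4 (17453 genes). Between left and right 75.5% of 4-fold changes were recovered (15489 genes), and in the Chat split 70.5% of 2-fold changes (9199 genes). False calls in these runs numbered 7 and 2, 17, and 5. The runs changed far fewer genes than were called from E18 to P4 and used means over all plates, so these shares need not carry over. Intervals are exact (Clopper-Pearson or Poisson, 95%); they and floors of 3 counts cover counting error only. Replicate numbers were not used to pair plates in the main fits. Over 21 pairs of series stages the correlation of deviations had a median of 0.019, and between left and right it was 0.232.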

Additional observations from a re-analysis of the deposited data

Results flagged for a closer look

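Wells that did not pass the thresholds were outside every comparison, and UMIs of the members were found in them above the 3 counts taken as a floor. In the 2027 such wells of the developmental series, with 516430 counts in all, there were 10 UMIs of Chat, 21 of Slc18a3, 34 of Slc5a7, 57 of Ache and 6 of Slc10a4. In the 838 such wells of the second set, with 351090 counts, there were 4 UMIs of Slc18a3, 12 of Slc5a7 and 25 of Ache.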

How the results depend on the processing

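Calls of Chat, Slc18a3 and Slc5a7 from E18 to P4, and of all 5 members from prenatal to postnatal plates, held under every alternative run. Counts of called genes were less stable, and the cause was not tested. Without a filter on low counts, 1201 genes were called from E11 to E15, 1461 from E15 to E18, 136 from P4 to P7, 1766 from P7 to adult, 37 between left and right and 529 in the Slc10a4 split. DESeq2 gave 802, 632, 21 and 1359 for the same 4 stage steps, 1 between left and right and 166 in the Chat split. Fitting only the 4 plates of a step gave 613 from E11 to E15, 0 from E15 to E18, 528 from E18 to P4 and 541 from P4 to P7. Leaving out deep wells gave 56 from E15 to E18 and 0 from P4 to P7. Spliced counts gave 4 from E15 to E18 and 278 in the Chat split, whose wells were still divided by total Chat UMIs. Pou4f1-positive wells gave 681 from E11 to E15, 299 in the Chat split and 37 in the Slc10a4 split. The Chat split called 130 genes without the plate block, 2295 without thinning, 201 when thinned to 3000 UMIs and 170 with at least 2 Chat UMIs, against 463. The Slc10a4 split called 6 when thinned to 5000 UMIs, which also left 4 of 6 plates.

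With the replicate number as a block, the count was 16 from E15 to E18 and 6 between left and right, and the values of Chat from P7 to adult (-0.0179) and of Ache between left and right (-0.0233) changed sign. Neither was called in any fit. Left and right numbers correlated at 0.232 over 1 pair. All members were higher on plate 1 than on plate 2 of both sides. With the block, 402 genes had an unadjusted edgeR p under 0.05, against 182 without it. The labels do not say whether plates of the same number belong together.

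Other sign changes were all in uncalled values. Without a filter, P7 to adult was -0.00381 for Chat and -0.0548 for Ache, and without deep wells Ache was -0.343. With spliced counts, left minus right was 0.0683 for Chat and -0.0591 for Slc5a7. In Pou4f1-positive wells, E15 to E18 was 0.146 for Chat, and Ache in the Chat split was -0.0151; without thinning it was -0.0281.

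Leaving out 1 plate at a time gave 79 to 802 genes from E11 to E15, 4 to 2100 from E15 to E18, 574 to 5695 from E18 to P4, 0 to 1 from P4 to P7, 27 to 1572 from P7 to adult, 18 to 39 between left and right, 288 to 444 in the Chat split and 54 to 92 in the Slc10a4 split.

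Over the same omissions, uncalled log2 values that changed sign, or came to 0 for Slc10a4 where omitting P7 plate 1 left it no counts, ranged as follows. From E11 to E15, Slc5a7 ran from -0.813 to 0.230. From E15 to E18, Chat ran from -1.60 to 0.411, Slc5a7 from -0.448 to 1.79 and Ache from -0.264 to 2.52. From P4 to P7, Slc18a3 ran from -0.287 to 0.0051 and Slc10a4 from 0 to 3.21. From P7 to adult, Chat ran from -0.419 to 0.366, Ache from -0.371 to 0.482 and Slc10a4 from -3.21 to 0. Between left and right, Chat ran from -1.06 to 0.161, Slc18a3 from -0.738 to 0.561, Slc5a7 from -0.0672 to 0.144, Ache from -0.722 to 0.447 and Slc10a4 from -0.382 to 0.893.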
